A study of Mus musculus with 4 samples.

Results

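Hedgehog signalling genes were followed in mouse retinal organoids, which are aggregates of pluripotent stem cells grown towards retinal progenitors. The genes were taken from the deposited expression table by their symbols, and 9 of its 55426 rows were those of the ligand Shh, the receptors and binding proteins Ptch1, Boc, Cdon and Hhip, the transducer Smo, and the transcription factors Gli1, Gli2 and Gli3. By their genotype label all 4 libraries came from 1 line, a Mettl3 knockout with the Rx:GFP reporter and a HA-METTL3 copy that doxycycline (Dox) can induce, and all were at day 6 and were grown in medium with AGN, which the labels do not expand. The 2 untreated libraries received no Dox, and the 2 Dox libraries received 2 µg/ml of it over 6 days. METTL3 is the catalytic subunit of the enzyme that places N6-methyladenosine on RNA. The sample titles call both groups EV, which the labels do not explain. If EV names a construct other than the HA-METTL3 copy, the comparison would not measure induction of METTL3, so the groups are called only untreated and Dox here. The labels state that the duplicates had separate library preparation and sequencing, but not that they came from separate cultures, so the p-values below measure only the spread between these libraries.

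Sonic hedgehog is a secreted, lipid-modified ligand that binds the receptor PTCH1, with BOC, CDON and GAS1 as co-receptors. Binding lifts the block that PTCH1 places on SMO, and the zinc-finger factors GLI2 and GLI3 then act as activators; without ligand GLI3 is cut into a repressor. PTCH1, GLI1 and HHIP are feedback targets, so their transcripts serve as readouts of pathway activity. In the developing eye, hedgehog from the ventral midline is known to favour optic stalk over retina and to separate the left and right eye fields.

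The table gives FPKM, a level per transcript length and library depth, so levels of different genes can be compared within a library. The depth that the steps of its low values correspond to was 31500000 to 33900000 fragments per library. The FPKM sums were 793308 to 866239, and 13813 to 13909 genes reached 1 FPKM. Mettl3 itself, the targeted gene, read 40.33 and 37.98 FPKM untreated and 45.20 and 46.37 FPKM with Dox. Its log2 difference, Dox minus untreated as throughout and on the log2(FPKM + 1) scale, was 0.22 and did not pass the test (adjusted p = 0.122 in limma), although the groups did not overlap. This level does not settle which construct the libraries carried. Which part of Mettl3 was deleted is not given in the labels, and reads from the knocked-out gene and from the HA-METTL3 copy are not separated in the table. Its exons also overlap Tox4 on the opposite strand. The protocol calls the treated cells RPCs, and 8 eye-field and retinal progenitor genes summed to 446 and 421 FPKM untreated and to 1067 and 1213 FPKM with Dox. Of the 8, 6 were higher and 1 was lower: Otx2, at 173.12 and 172.52 FPKM untreated and 137.05 and 131.35 FPKM with Dox (adjusted p = 0.0254 in limma, and 0.0616 without the filter on low values). Sox2, among the 6 higher genes, passed with that filter (adjusted p = 0.0347 in limma) and not without it (0.143). Without the filter 5 of the 8 were higher and 0 lower. Pax6 did not pass. Over all 13931 tested genes 4.44% were higher and 4.87% lower at an adjusted p under 0.05. Six6, a defining eye-field and retinal progenitor factor, was at 0.01 FPKM in both untreated libraries and at 79.22 and 92.44 FPKM with Dox, so this defining marker was near 0 without Dox.

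Upstream sequence is shown for Ptch1 and Gli3, which changed, and for Gli2, which did not pass the test, since GLI factors act on the promoters of their targets and Ptch1 is a known target. From RefSeq (GRCm38.p6), the 250 bases before the annotated start were available for 6 of the 9 members. They are printed 5′ to 3′ on the gene's strand with the GC box GGGCGG (or its reverse complement CCGCCC) in capitals, a motif chosen after the sequences were seen. Ptch1 lies on the minus strand at chr13:63565736-63565985, Gli3 on the plus strand at chr13:15463473-15463722, and Gli2 on the minus strand at chr1:119053620-119053869. In GENCODE M21 the Ptch1 and Gli3 windows lie within the gene's outermost bounds but hold no exon of the gene, the Gli3 window overlaps an exon of Gm6556, and the Gli2 window lies just upstream of the gene.
Ptch1: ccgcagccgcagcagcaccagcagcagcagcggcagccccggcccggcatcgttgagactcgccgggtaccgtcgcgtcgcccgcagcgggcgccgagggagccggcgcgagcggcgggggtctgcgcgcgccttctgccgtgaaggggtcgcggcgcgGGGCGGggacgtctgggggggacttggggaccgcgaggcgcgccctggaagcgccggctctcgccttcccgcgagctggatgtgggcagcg
Gli3: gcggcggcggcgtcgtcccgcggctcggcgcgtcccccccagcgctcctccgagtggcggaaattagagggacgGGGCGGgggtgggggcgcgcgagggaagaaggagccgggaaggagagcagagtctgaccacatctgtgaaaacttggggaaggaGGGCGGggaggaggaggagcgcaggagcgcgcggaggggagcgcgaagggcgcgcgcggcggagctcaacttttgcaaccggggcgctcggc
Gli2: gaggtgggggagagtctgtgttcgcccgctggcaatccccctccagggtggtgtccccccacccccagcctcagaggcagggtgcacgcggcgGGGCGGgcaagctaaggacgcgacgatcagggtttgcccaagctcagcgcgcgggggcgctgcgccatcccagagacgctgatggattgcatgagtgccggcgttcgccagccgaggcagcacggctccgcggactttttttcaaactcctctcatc

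These windows are rich in G and C, at 78.4% for Ptch1, 72.8% for Gli3 and 67.2% for Gli2, where the median of 32851 such windows was 52.4%. A GC box was present in 4 of the 6 members with a window (Ptch1, Gli2, Gli3 and Hhip) and in 32.7% of all windows. Among the 87 members and listed pathway genes with a window, 58 (66.7%) held one, so the box was not particular to the members. The Gli consensus GACCACCCA, read on both strands, was in none of the 6 and in 0.225% of all windows. Its core CCACCCA, which lies within it, was also in none of the 6 and in 8.11% of all windows. Of 109 members and listed pathway genes 87 had a window, and 5 of these held the core, Olig2 and Nkx2-9 among them. No match says only that these letters are not in this window. The Cdon window, at chr9:35451826-35452075 with 42.8% G and C, lies inside the gene and overlaps annotated exons of Cdon.

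The members did not move together. Of the 9, 6 averaged 1 FPKM or more and entered the test, and among these Cdon was higher with Dox and Ptch1, Boc and Gli3 were lower, while Gli2 and Smo did not pass. In bulk organoids fewer cells of a type and less RNA per cell cannot be told apart. Over all 13931 tested genes 9.31% passed in either direction, 4.44% higher and 4.87% lower, at an adjusted p under 0.05 in limma. Shh, Gli1 and Hhip lay under the filter on low values and are described by their values. Libraries of the groups did not overlap in 4 of the 6 tested members, against 53.4% of all tested genes.

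**Figure D1:**
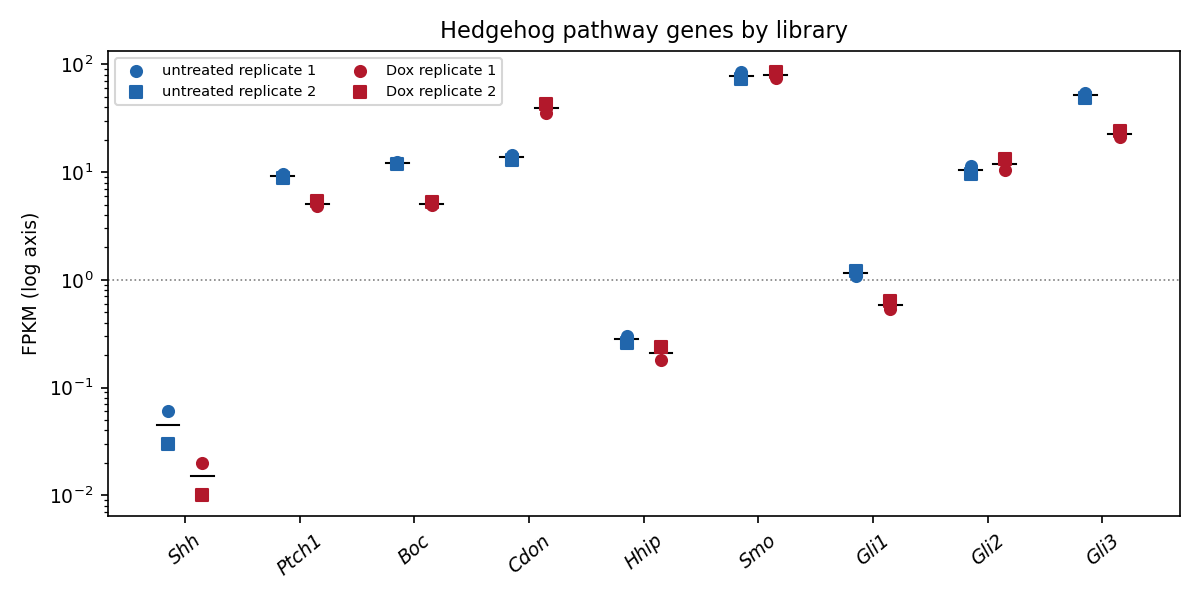
FPKM of the 9 hedgehog genes in each of the 4 libraries (log axis; blue untreated, red Dox; circles replicate 1, squares replicate 2; black lines are group means; dotted line at 1 FPKM). Cdon is the gene with both Dox libraries above both untreated libraries, Smo and Gli2 overlap, and Shh lies far below the others.

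The ligand was barely detected. Shh (ENSMUSG00000002633; chr5:28456815-28467256, minus strand, GRCm38 as are all positions below) was listed at 0.06 and 0.03 FPKM untreated and at 0.02 and 0.01 FPKM with Dox. Given its longest annotated transcript of 2847 nt, these values correspond to about 5, 3, 2 and 1 fragments. The level of 3 fragments was 0.034 to 0.036 FPKM, so 1 untreated library lay above it and the other 3 below. A difference in Shh was not detectable at this depth, and no fold is given. Its paralogs were also under 1 FPKM: Ihh stood at 0.11 and 0.10 FPKM untreated and 0.37 and 0.23 FPKM with Dox, and Dhh at 0.04 to 0.13 FPKM in all 4 libraries. Transcripts of the known sources of the ligand in this region were also low, since Foxa2, a floor plate factor, was at 0.11 to 0.36 FPKM, and Nkx2-1, a marker of the ventral hypothalamus, was at 0 in 3 libraries and 0.03 FPKM in Dox replicate 2.

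Ptch1, the receptor that also serves as a readout of the pathway, was lower with Dox. Ptch1 (ENSMUSG00000021466; chr13:63508328-63573598, minus strand) stood at 9.55 and 8.91 FPKM untreated and at 4.85 and 5.35 FPKM with Dox. Both Dox libraries lay well below both untreated libraries. The means were 9.23 ± 0.453 and 5.10 ± 0.354 FPKM (SD, n = 2 each), a 1.81-fold lower level, and the log2 difference was -0.75 (SE 0.101, adjusted p = 0.0099 in limma). This call depended on the fit: without the filter on low values the adjusted p was 0.0582. In each of the 4 fits that left out 1 library, of either group, it was also above 0.05, from 0.0524 to 0.0755, with the fold change between -0.81 and -0.69.

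The feedback targets Gli1 and Hhip were too low to enter the test. Gli1 (ENSMUSG00000025407; chr10:127329882-127341974, minus strand), the amplifier of the response and its most used readout, was listed at 1.08 and 1.22 FPKM untreated and 0.54 and 0.63 FPKM with Dox. These values correspond to about 130 and 158 fragments untreated and 67 and 80 with Dox. The mean was 1.97-fold lower with Dox, and the groups did not overlap, but its mean over all libraries missed the filter. With the filter lowered to 0.5 FPKM, a setting chosen after its values were seen, Gli1 had a log2 difference of -0.44 and did not pass (adjusted p = 0.107 in limma). Without a filter it did not pass either (unadjusted p = 0.00971, adjusted p = 0.131 in limma), where 2.71% of 27532 genes did.

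Hhip (ENSMUSG00000064325; chr8:79965851-80058006, minus strand), a membrane protein that traps the ligand, was listed at 0.30 and 0.26 FPKM untreated and 0.18 and 0.24 FPKM with Dox. The gap between the groups was smaller than the spread within the Dox group (adjusted p = 0.496 in limma without a filter). For both Gli1 and Hhip the exact two-sided permutation p was 0.333, the smallest that 2 libraries against 2 allow.

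The related co-receptors Boc and Cdon moved in opposite directions. Boc (ENSMUSG00000022687; chr16:44485049-44558897, minus strand), an immunoglobulin-family protein that presents the ligand to PTCH1, was at 12.44 and 12.02 FPKM untreated and at 4.94 and 5.24 FPKM with Dox. It was 2.40-fold lower with Dox, from 12.2 ± 0.297 to 5.09 ± 0.212 FPKM (SD, n = 2 each), with a log2 difference of -1.12 (SE 0.0907, adjusted p = 0.00161 in limma). Its replicates differed by far less than the groups did.

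Cdon (ENSMUSG00000038119; chr9:35421128-35507652, plus strand), the paralog of Boc, was at 14.44 and 13.07 FPKM untreated and at 35.18 and 42.76 FPKM with Dox. Both Dox libraries lay above both untreated ones, although they also differed from each other. It rose 2.83-fold, from 13.8 ± 0.969 to 39.0 ± 5.36 FPKM, for a log2 difference of 1.43 (SE 0.114, adjusted p = 0.00151 in limma). This placed Cdon at rank 160 from the top of the 13931 tested fold changes, while Boc and Gli3 were at ranks 256 and 246 from the bottom. Calls for Boc, Cdon and Gli3 also passed in every alternative fit, with adjusted p-values up to 0.0394.

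**Figure D2:**
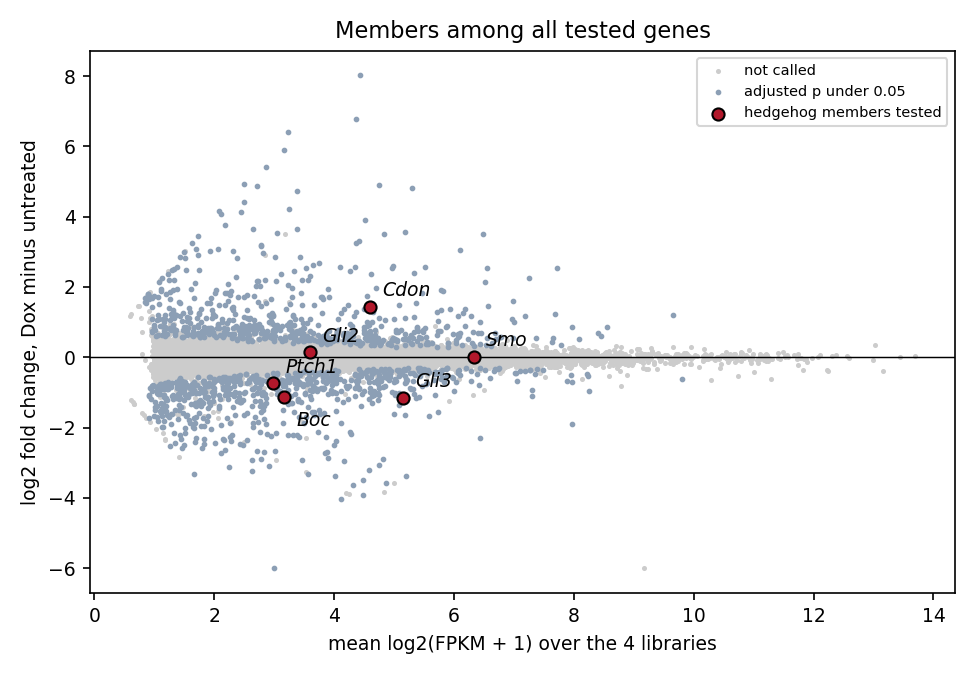
Log2 fold change (Dox minus untreated) against mean log2(FPKM + 1) for the 13931 tested genes, with genes at an adjusted p under 0.05 in blue-grey and the 6 tested hedgehog members in red. Cdon lies above the grey band at 1.43, Gli3 and Boc below it at -1.15 and -1.12, and Smo on the zero line.

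Smo, the membrane protein that carries the signal inward, had the highest level of the 9 and did not pass the test. Smo (ENSMUSG00000001761; chr6:29735503-29761365, plus strand) was at 84.86 and 72.86 FPKM untreated and at 74.76 and 85.18 FPKM with Dox. The ranges of the groups overlapped. The log2 fold change was 0.02, with a 95% interval from -0.24 to 0.28 (adjusted p = 0.927 in limma), so that changes of the size seen for Boc or Gli3 lie outside the interval. The order of levels in the untreated libraries was Smo, Gli3, Cdon, Boc, Gli2, Ptch1, Gli1, Hhip and Shh. In that order no neighbours overlapped, but Gli2 at 9.68 to 11.34 FPKM and Ptch1 at 8.91 to 9.55 FPKM were closer to each other than the spread of Gli2. With Dox, Cdon at 35.18 to 42.76 FPKM came next after Smo, ahead of Gli3, and Boc and Ptch1 overlapped.

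Among the GLI factors the member best known as a repressor fell. Gli3 (ENSMUSG00000021318; chr13:15463235-15730026, plus strand) was at 54.29 and 49.00 FPKM untreated and at 21.26 and 24.22 FPKM with Dox. It was 2.27-fold lower, from 51.6 ± 3.74 to 22.7 ± 2.09 FPKM (SD, n = 2 each), with a log2 difference of -1.15 (SE 0.0945, adjusted p = 0.00166 in limma). No Dox library reached an untreated one.

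Gli2 (ENSMUSG00000048402; chr1:118834132-119053619, minus strand), the main activator, was at 11.34 and 9.68 FPKM untreated and at 10.44 and 13.20 FPKM with Dox. These groups overlapped. Its log2 fold change was 0.15 with a 95% interval from -0.20 to 0.50 (adjusted p = 0.573 in limma).

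The balance within the families followed from these changes. Gli3 exceeded Gli2 by 4.79- and 5.06-fold in the untreated libraries and by 2.04- and 1.83-fold in the Dox libraries. Gli3 made up 81.4% and 81.8% of the summed GLI level untreated and 65.9% and 63.7% with Dox, while Gli1 stayed between 1.62% and 2.04%. The summed GLI level was 66.7 and 59.9 FPKM untreated and 32.2 and 38.0 FPKM with Dox.

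Cdon was 1.16 and 1.09 times as abundant as Boc untreated and 7.12 and 8.16 times with Dox. The level of Smo relative to Ptch1 was 8.89 and 8.18 untreated and 15.4 and 15.9 with Dox. For the 3 ratios of Gli3 to Gli2, Cdon to Boc and Smo to Ptch1 the groups did not overlap, and the exact two-sided permutation p was 0.333, the smallest possible here. The ratios compare transcripts and not proteins.

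**Figure D3:**
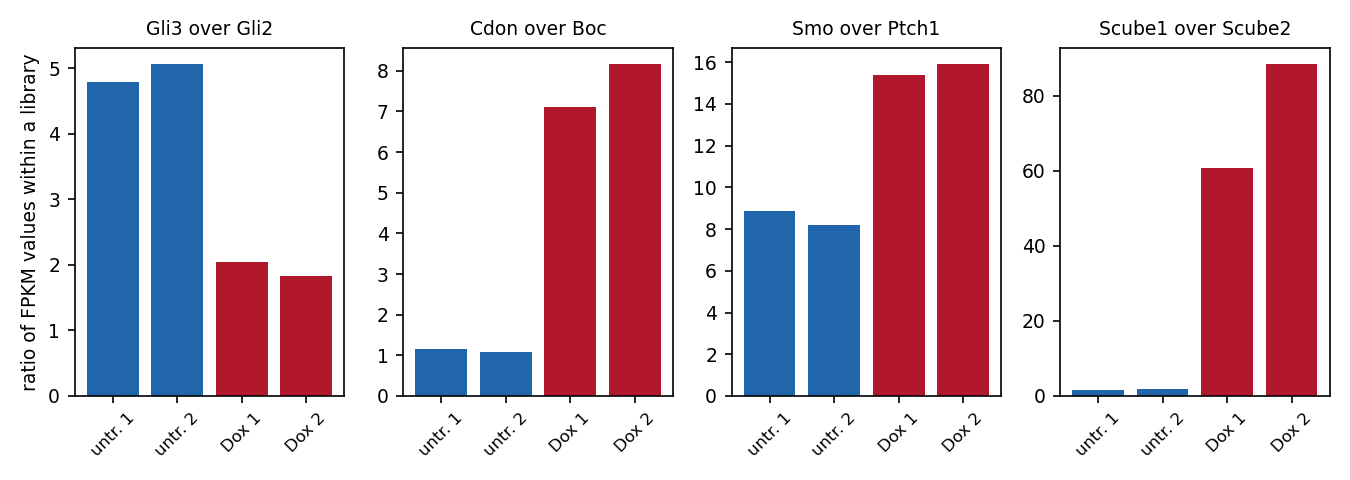
Ratios of FPKM values within each of the 4 libraries (bars from 0; blue untreated, red Dox; each panel has its own axis). Gli3 over Gli2 falls from about 5.06 to 1.83 at the extremes, and the other 3 ratios are higher in both Dox libraries than in both untreated libraries.

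Annotated exons of some members overlap genes on the opposite strand, and whether counting used strand is not given in the sources used here. This concerns Shh, Gli1 (Arhgap9), Gli3 and Hhip. Boc, Cdon, Ptch1, Gli2 and Smo have no exon that overlaps another gene in GENCODE M21.

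Genes that make and release the ligand were mixed. Of 7 listed genes, 5 were tested, 1 was higher and 2 were lower. Among the 13931 tested genes, 4.44% passed as higher and 4.87% as lower in limma. Signed log2 fold changes had a median of 0.01 in this list and -0.004 in the whole tested set. With a minimum of 5 FPKM, which keeps fewer of these genes, the signed median was -0.41. Ignoring sign, the median was 0.827 for the 5 genes and 0.133 for the whole tested set. All 3 that passed belong to the SCUBE family of secreted proteins, which are known to help release hedgehog from the cells that make it. Scube1 rose from 17.84 and 15.36 FPKM untreated to 83.05 and 102.42 FPKM with Dox, a log2 difference of 2.41 (SE 0.126, adjusted p = 3.67e-04 in limma).

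Scube2 fell from 10.37 and 8.84 FPKM to 1.37 and 1.16 FPKM, a log2 difference of -2.22 (adjusted p = 5.06e-04). Scube3 fell from 38.84 and 35.88 FPKM to 19.70 and 21.54 FPKM, a log2 difference of -0.83 (adjusted p = 0.00328). Scube1 was 1.72 and 1.74 times as abundant as Scube2 untreated and 60.6 and 88.3 times with Dox. Disp1, which exports the lipid-modified ligand, did not pass, at 7.11 and 5.72 FPKM untreated and 5.95 and 6.96 FPKM with Dox. Hhat, the enzyme that adds its palmitate, was at 2.92 and 2.33 FPKM untreated and 3.34 and 3.87 FPKM with Dox (adjusted p = 0.208).

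Of the 13 further surface proteins listed, 12 were tested, 3 were higher and 0 were lower (4 and 0 at an unadjusted p under 0.05). Their log2 fold changes had a median of 0.04. Among the 13931 tested genes, 4.44% passed as higher and 4.87% as lower in limma. At an unadjusted p under 0.05 these numbered 1673 and 1663. Without the filter on low values, 1 of the 13 surface proteins was higher and 0 were lower. The 3 that passed with the filter were Gas1, Gpc4 and Lrp2. Gas1, a co-receptor anchored in the membrane, was at 40.44 and 39.91 FPKM untreated and 62.93 and 73.80 FPKM with Dox, a log2 difference of 0.75 (adjusted p = 0.00697 in limma). Its adjusted p was 0.0616 without a filter and 0.0543 without untreated replicate 2.

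Gpc4, a heparan sulfate proteoglycan, was at 17.84 and 16.91 FPKM untreated and 27.60 and 29.46 FPKM with Dox, a log2 difference of 0.68 (adjusted p = 0.00518), and its adjusted p was 0.0523 without Dox replicate 2. Lrp2, an endocytic receptor that binds the ligand, was at 15.11 and 13.88 FPKM untreated and 21.70 and 26.01 FPKM with Dox. Its log2 fold change was 0.68 (adjusted p = 0.0186), which rose to 0.101 without a filter, and to 0.0655, 0.114 and 0.0896 without untreated replicate 1, untreated replicate 2 and Dox replicate 2. Boc made up 18.5% of the summed level of Boc, Cdon and Gas1 in both untreated libraries and 4.79% and 4.30% with Dox.

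Genes of the machinery that processes the GLI proteins changed about as much as the typical tested gene. Their median absolute log2 fold change was 0.111, against 0.133 over all tested genes. Of all 13931 tested genes 4.44% were higher and 4.87% lower, and 1673 and 1663 genes at an unadjusted p under 0.05 in limma. Of the 19 genes of this machinery, all tested, 1 was higher and 0 were lower, 3 and 0 at an unadjusted p under 0.05. Their median log2 fold change was 0.11. The 1 was Ulk3, a kinase that phosphorylates GLI proteins, at 6.84 and 8.02 FPKM untreated and 12.22 and 16.11 FPKM with Dox, a log2 difference of 0.84 (adjusted p = 0.0274 in limma). It lost the threshold without a filter (adjusted p = 0.135) and without untreated replicate 1 (0.126), untreated replicate 2 (0.0769) or Dox replicate 2 (0.115). Sufu, the main cytoplasmic inhibitor of GLI proteins, was at 21.51 and 20.93 FPKM untreated and 19.77 and 24.20 FPKM with Dox (adjusted p = 0.858). Kif7, the ciliary kinesin that organises GLI at the tip, was at 13.19 and 11.66 FPKM untreated and 12.96 and 14.53 FPKM with Dox (adjusted p = 0.493).

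Hedgehog signals are transduced in the primary cilium. Genes of ciliary transport and of the transition zone changed about as much as the typical tested gene. Their median absolute log2 fold change was 0.121, against 0.133 over all tested genes. The groups did not overlap in 19 of the 36, against 53.4% of all tested genes. Of all 13931 tested genes 4.44% were higher and 4.87% lower, and 1673 and 1663 genes at an unadjusted p under 0.05 in limma. Of the 36 listed and tested genes, 0 were higher and 1 was lower, 1 and 4 at an unadjusted p under 0.05. Their median log2 fold change was -0.03. The 1 was Tctn2, a transition zone protein, at 17.48 and 15.33 FPKM untreated and 10.74 and 11.76 FPKM with Dox, a log2 difference of -0.51 (adjusted p = 0.0372 in limma). That call was lost without a filter, with rescaling to a common sum, without the trend, with the replicate number as a block (adjusted p = 0.0629), and in each of the 4 fits that left out 1 library, where the adjusted p was 0.0911 to 0.196.

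**Figure D4:**
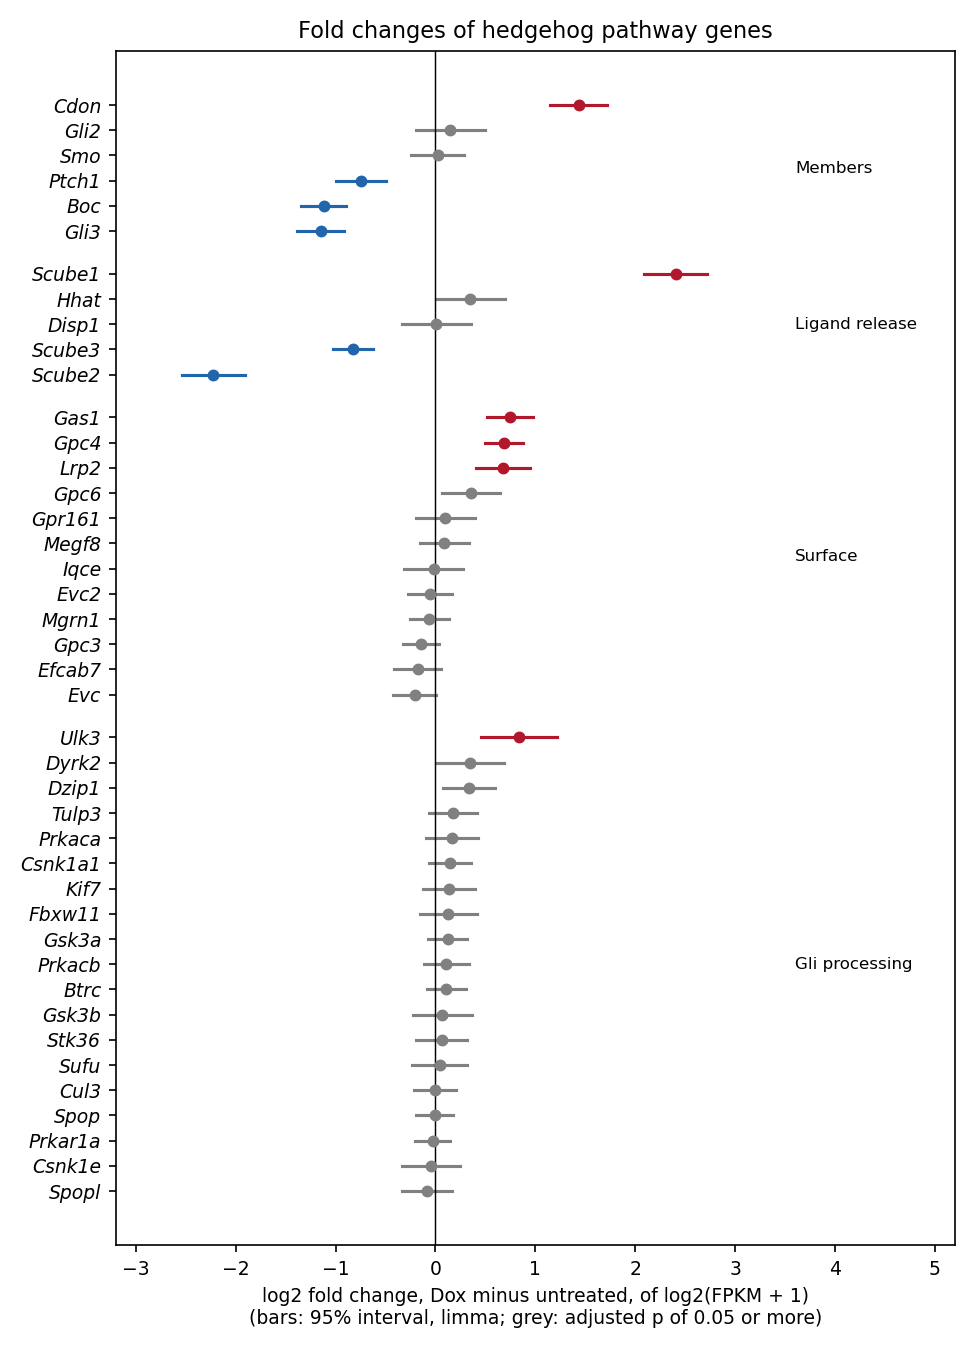
Log2 fold change (Dox minus untreated, on the log2(FPKM + 1) scale) with 95% interval from limma for all tested members and all tested genes of the ligand release, surface and GLI processing lists. Red and blue mark genes higher and lower at an adjusted p under 0.05, and grey the rest; Scube1 at 2.41 and Scube2 at -2.22 lie farthest from 0, and the GLI processing genes other than Ulk3 lie near it.

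Genes known to respond to hedgehog were mixed. Of 20 listed, only 8 passed the filter, of which 2 were higher and 3 lower, 4 and 3 at an unadjusted p under 0.05. Without the filter 3 were higher and 4 lower of 20. Since several passed the filter only through the group in which they are high, the counts describe these genes and are no support for a direction. The lower ones include Olig2, the motor neuron and oligodendrocyte progenitor factor of the ventral neural tube, at 4.97 and 3.74 FPKM untreated and 0.18 and 0.21 FPKM with Dox, a log2 difference of -2.15 (adjusted p = 0.00111 in limma).

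Mycn, a proliferation factor, was at 36.90 and 33.33 FPKM untreated and 15.44 and 14.28 FPKM with Dox (log2 fold change -1.19, adjusted p = 0.00107). Ccnd2, a cyclin, was at 66.43 and 56.28 FPKM and then 29.14 and 24.31 FPKM (log2 fold change -1.17, adjusted p = 0.00377, and 0.0548 without a filter). Nkx6-1 and Nkx6-2, homeodomain factors of the ventral neural tube, passed as lower without the filter (adjusted p = 0.0396 and 0.0368 in limma), but not with no filter and a pseudocount of 0.1 FPKM (0.0796 and 0.0696). Nkx6-1 stood at 0.42 and 0.43 FPKM untreated and 0.10 and 0.07 FPKM with Dox, and Nkx6-2 at 0.99 and 1.01 FPKM untreated and 0.24 and 0.17 FPKM with Dox. Nkx2-2, which needs high hedgehog, was at 0.02 to 0.15 FPKM in all 4 libraries.

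The genes of this list that passed as higher, with or without the filter, were those of the optic stalk and ventral eye. Rab34 and Ccnd1 were also higher in both Dox libraries but did not pass (adjusted p = 0.0819 and 0.106 in limma). Rab34 was at 45.34 and 47.56 FPKM untreated and 54.63 and 56.38 FPKM with Dox. Ccnd1 was at 25.94 and 22.20 FPKM untreated and 30.07 and 30.41 FPKM with Dox. Pax2, a defining factor of the optic stalk, was at 0.22 and 0.20 FPKM untreated and at 20.56 and 30.37 FPKM with Dox, a log2 difference of 4.43 (SE 0.191, adjusted p = 1.86e-04 in limma). Vax2 was at 0.12 and 0.29 FPKM untreated and at 7.99 and 8.14 FPKM with Dox (log2 fold change 2.91, adjusted p = 2.07e-04). Vax1 was at 0.08 FPKM and 0 untreated and at 1.52 and 2.22 FPKM with Dox, and its mean was under the filter. In the 6 alternative fits that it entered, it passed in 5, with adjusted p-values of 0.00238 to 0.0473 in limma, and not with no filter and a pseudocount of 0.1 FPKM (0.0579). The grouping into neural tube and eye was made after the values were seen.

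Genes that hedgehog is known to repress in the neural tube were lower or did not pass. Of 6 listed, 5 were tested, 0 were higher and 3 were lower, with a median log2 fold change of -1.44. That median was -0.78 over all 6 without the filter, -0.74 with a pseudocount of 5 FPKM and -1.86 with one of 0.1 FPKM. Pax3 was above 1 FPKM only in the untreated group, so here too the counts are no support for a direction. Dbx1, an interneuron progenitor factor, was at 19.58 and 14.89 FPKM untreated and 2.10 and 1.49 FPKM with Dox (log2 fold change -2.70, adjusted p = 7.27e-04 in limma). Pax3, a dorsal neural tube and neural crest factor, was at 6.97 and 6.99 FPKM and then 0.71 and 0.47 FPKM (log2 fold change -2.33, adjusted p = 4.56e-04). Irx3 was at 6.39 and 5.53 FPKM and then 1.75 and 1.40 FPKM (log2 fold change -1.44, adjusted p = 0.0026). Pax6, at 127.76 and 118.86 FPKM untreated and 122.80 and 130.69 FPKM with Dox, and Pax7, at 2.66 and 2.32 FPKM and then 1.99 and 2.38 FPKM, had overlapping groups.

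**Figure D5:**
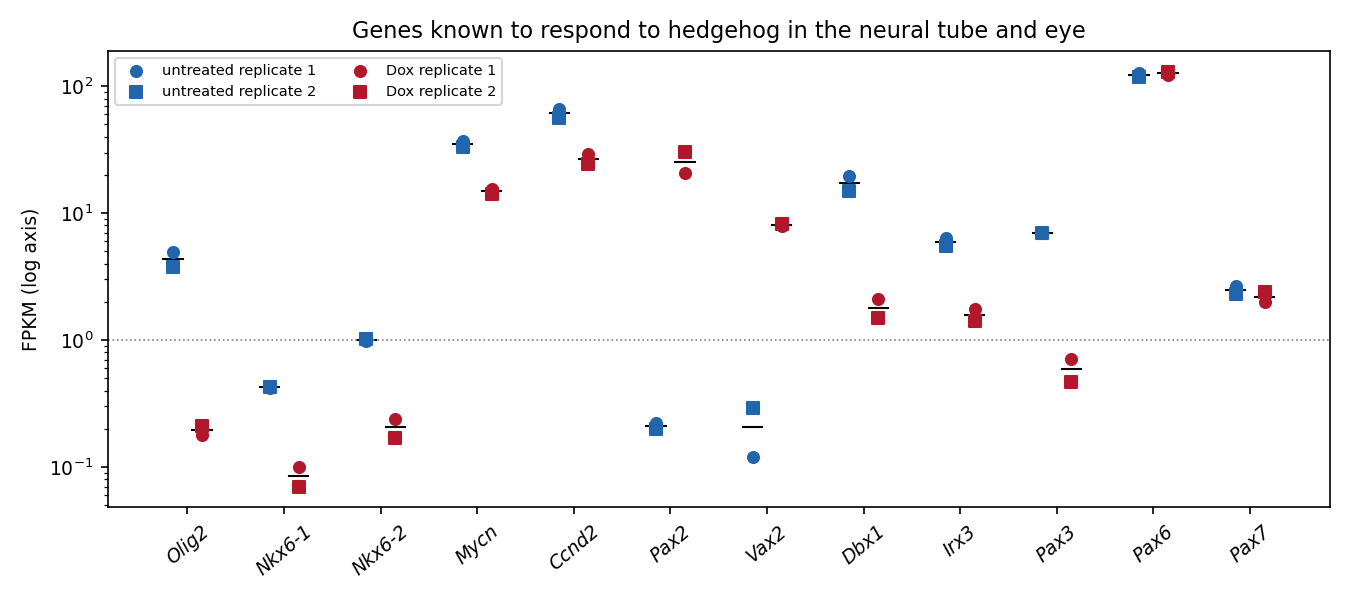
FPKM (log axis) of 12 genes known to respond to hedgehog or to be repressed by it, in each library (blue untreated, red Dox; circles replicate 1, squares replicate 2; black lines are group means; dotted line at 1 FPKM). Olig2, Mycn, Dbx1, Irx3 and Pax3 are lower in both Dox libraries, Pax2 and Vax2 are higher in both, and Pax6 and Pax7 overlap.

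Summed markers of some other cell types differed between the groups, and those of others had overlapping groups. The 7 dorsal forebrain markers summed to 258 and 255 FPKM untreated and to 56.8 and 50.9 FPKM with Dox. The 7 neuronal markers summed to 150 and 147 FPKM and to 82.3 and 86.1 FPKM. Of the floor plate markers the defining Foxa2 and Ferd3l were under 1 FPKM in all 4 libraries. The 5 markers of retinal ganglion cells, which make hedgehog in the later retina, summed to 24.3 to 29.4 FPKM with overlapping groups, but the members differed among themselves. Pou4f1 was lower, at 9.64 and 9.27 FPKM untreated and 1.30 and 1.06 FPKM with Dox (adjusted p = 3.37e-04 in limma), and Rbpms, which made up most of the sum, did not pass, at 18.14 and 15.76 FPKM and then 21.87 and 25.87 FPKM. Atoh7 was at 0.77 and 0.94 FPKM untreated and 0.18 FPKM in both Dox libraries, and it passed as lower without the filter (adjusted p = 0.0492). Pou4f2 was at or below 0.05 FPKM in all 4. The 6 ventral hypothalamus markers summed to 26.0 and 25.6 FPKM untreated and to 23.46 and 22.04 FPKM with Dox, with Nkx2-1, Nkx2-4, Otp and Sim1 under 1 FPKM throughout. Of 6 mesoderm markers, 5 were under 1 FPKM in every library, and the 5 pluripotency markers summed to 48.9 to 70.9 FPKM over the 4 libraries, with overlapping groups. The part of such differences in cell composition in the levels of Ptch1, Boc, Cdon and Gli3 was not tested.

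For each member that passed, the 3 tested genes whose log2 profile, centred per gene, lay nearest over the 4 libraries were noted by Euclidean distance. They were Nrp2, Klhdc8b and Kcnn1 for Ptch1, with distances of 0.0224 to 0.0403, and Pcdh10, Dact1 and Lrig1 for Gli3, at 0.054 to 0.0767. For Boc they were Nes, Nefl and Rps4l, at 0.0397 to 0.0604. For Cdon they were Ptpru, Ier5l and Pcdh7, at 0.0269 to 0.107. With 4 libraries in 2 groups such a likeness is common: 311 genes lay within 0.3 of Ptch1, 132 of Gli3, 158 of Boc and 58 of Cdon.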

How the data were processed

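Poly(A) RNA from 4 libraries (2 untreated, 2 Dox) was sequenced as paired ends, with separate library preparation for the duplicates, per the labels' protocols. The authors deposited FPKM values, 1 column per library and rounded to 2 decimals. The submitters' processing notes name STAR, Cuffdiff and mm10; versions, annotation and strand setting are not given in the sources used here. Libraries were grouped by their treatment label, and 0 other columns of values were present. All 4 carry 1 batch date, and which preparation round each belongs to is not given in the sources used here, so no batch was fitted.

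FPKM is no count, so values were tested as log2(FPKM + 1) with limma 3.58.1 (R 4.3.3; eBayes with an intensity trend, two-sided, no covariate). Genes averaging 1 FPKM or more entered, and p-values were adjusted by Benjamini-Hochberg over all tested genes with a threshold of 0.05. Fold changes on this scale understate the change of low genes. Depth was fitted from the steps of low values of single-transcript genes of 450 to 1200 nt: 80.7% to 82.8% came out whole within 0.006 FPKM, against 21.1% to 23.1% by chance. Fragment numbers cover counting error only. The pipeline was tested on simulated data. GENCODE M21 (GRCm38) gave positions and overlapping exons, and upstream sequence from RefSeq (GRCm38.p6).

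Members, lists and tests were chosen with earlier results of these data known. Named genes are all members, Mettl3, and of each pathway list the called genes, at most 4 in each direction, plus defining genes near 0. Other listed genes (such as Sufu, Kif7, Disp1, Hhat, Rab34, Ccnd1, Pax6, Pax7, Otx2, Pou4f1, Rbpms and Atoh7) were chosen after their values were seen. Alternatives were other pseudocounts (0.1 or 5), filters (none, 0.5 or 5 FPKM), scalings, eBayes settings, the replicate number as a block and each library left out. Python 3.11.15 was used for the rest. Results of some listed genes are not reported here.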

Additional observations from a re-analysis of the deposited data

How the results depend on the processing

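In the settings listed above, 1 member was called higher in every fit and 3 lower in most. The count of lower members was 2 without a filter, with no filter and a pseudocount of 0.1 FPKM, and in all 4 fits that left out a library, each time for loss of Ptch1. Leaving out 1 library leaves a lone library in a group, which is assumed to vary like the others, and gave 265 to 332 genes higher and 341 to 370 lower, against 619 and 678; members numbered 1 higher and 2 lower throughout. Without a filter 336 were higher and 409 lower, with a minimum of 5 FPKM 408 and 413, and with no filter and a pseudocount of 0.1 FPKM 309 and 337; the first and last test more genes and the second fewer. Gli2, which had not passed, ranged from -0.005 (without Dox replicate 2) to 0.3068 with 1 library left out, and Smo from -0.0876 (without untreated replicate 2) to 0.1296, with -0.072 without Dox replicate 2. Under a replicate block 532 genes were higher and 602 lower, and of the members 1 and 3; Tctn2 was the one of the 16 called pathway genes outside the members that lost its call. Pairing by number has no basis in the labels, and deviations of same-numbered libraries correlated at -0.0435 over genes. The pseudocount moved the fold change of Gli1 from -0.44 to -0.87 (no filter, 0.1 FPKM), and its adjusted p stayed between 0.107 and 0.188. Depth limits Shh, at 1 to 5 fragments per library.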
